A study of Mus musculus with 4 samples.

Results

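The loci examined here are those of 10 mouse transcription factor genes that direct the formation of mesoderm and endoderm: Foxa2, Sox17, Gata4, Gata6, Eomes, Gsc, Mixl1, Hand1, Mesp1 and Tbx5. They were chosen by name from known biology, with earlier results of these data known, and each locus was taken as all 40 kb bins within 500 kb of the gene body (mm9), which gave 26 to 28 bins per gene. The 10 genes were compared with all 21418 autosomal protein-coding genes of the annotation, treated in the same way. All 10 lie on autosomes, on 9 chromosomes, because Sox17 and Mixl1 share chromosome 1.

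Hi-C, which crosslinks and ligates DNA ends that are close in the nucleus and counts the joined pairs, was performed on male mouse embryonic stem cells (mESCs), wild type or labelled as a knockout of the X-linked long non-coding RNA gene Firre. The wild-type (WT) cells were of the N3 line and grew in 2i medium. The Firre knockout (KO) cells, described as carrying a deletion of the whole Firre locus, also grew in 2i medium, on irradiated feeder fibroblasts that were removed by plating on gelatin before use. The methods and a figure legend name feeders for the knockout cells alone, while a sentence of the results text names them for both groups. A group held 2 libraries, described as technical duplicates, whose reads were pooled into 1 matrix before deposit. Genotype, feeder culture and possibly cell line therefore changed together and cannot be told apart, and with 1 matrix per group no test was run. Hi-C gives no expression, so the labelled cell type was not checked by markers, and whether any of these genes was transcribed is not known from these files.

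Mesoderm and endoderm arise from the epiblast at gastrulation, when a transient mesendoderm population in the primitive streak turns on Eomes, Mixl1 and Gsc. Sox17 and Foxa2 then specify definitive endoderm, Mesp1 marks the first cardiac mesoderm, and Gata4, Gata6, Hand1 and Tbx5 build the heart, with Gata4 and Gata6 also acting in extraembryonic endoderm. In undifferentiated mESCs such developmental genes are in general silent or held in a bivalent, Polycomb-marked state. In Hi-C, chromosomes fold into topologically associating domains (TADs), whose borders insulate neighbouring sequence, and into an active A and an inactive B compartment, whose members contact like members over long distances and across chromosomes.

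In all, 65611035 read pairs were recovered from the WT matrix, 16.1% of them between chromosomes, and 46635652 from the Firre KO-labelled matrix, 35.6% between chromosomes. The same gap was present at the loci, and its part in the results was not tested: 14.3% to 24.7% of the read pairs of a locus joined it to another chromosome in WT and 34.8% to 50.8% in the Firre KO-labelled matrix. Every bin of the 10 loci was kept in both matrices, with 32132 to 71757 read pairs per locus in WT and 23802 to 52067 in the Firre KO-labelled matrix. Sox17 had the fewest in both. The bin that lies wholly inside the Firre gene (6720401G13Rik in the annotation, X chromosome, 47920001 to 47960000) still held 1144 X chromosome read pairs in the Firre KO-labelled matrix, against 1550 in WT. Scaled to 1000000 read pairs of the X chromosome, the bin had 1437 (1355 to 1523) there and 1709 (1625 to 1796) in WT. Each direction below therefore compares the matrices by their labels, not cells known to lack the locus. All intervals are 95% intervals of the read pairs and cover counting error only.

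The sequence that the 10 loci share was described first. GC content of the loci ran from 40.1% at Sox17 to 48.5% at Tbx5, with a median of 46.0% beside 44.2% over all genes, and 7 of the 10 lay above the latter. Protein-coding genes numbered 3 at Tbx5 and 4 at Foxa2 to 25 at Mesp1, with a median of 12 per locus beside 18 over all genes, and 3 of the 10 (Gsc, Mixl1 and Mesp1) lay above the latter. Sites of HindIII, the enzyme that cut the chromatin, numbered 273 to 367 per locus, with a median of 329.5 beside 323.

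CTCF is the zinc finger protein that, with cohesin, is known to mark many TAD borders, and its core motif (14 positions, degenerate, searched on both strands) was looked for in the bin of the boundary nearest each gene and the bin on each side. The boundaries themselves are described in the next paragraphs. Of the nearest boundaries that lay within 500 kb of a start, 6 of 8 in WT had a match in these 3 bins. In the Firre KO-labelled matrix 8 of 10 had one. At Sox17, Eomes and Gsc the spans of both matrices held the same match, so these counts are not separate results and were not added. Among all 58938 kept autosomal bins, 23.9% had a match in the same span, and among all autosomal boundaries 34.5% in WT and 34.8% in the Firre KO-labelled matrix. A match is a string of letters and not a site shown to be bound. The 8 stretches below are the matches outside exons nearest the middle of those boundaries that lay within 160 kb of a start. Their distance from the start is positive downstream. They are shown because these are the stretches of sequence at the borders next to the genes. Each is 60 bases of the mm9 reference, 5′ to 3′ on the strand of the match, with the motif in capitals.
Sox17 (chr1:4373054-4373113, minus strand, between genes, at 113.4 kb from the start, boundary of both matrices): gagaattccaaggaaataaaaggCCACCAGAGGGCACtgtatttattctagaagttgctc
Gata4 (chr14:63976989-63977048, plus strand, between genes, at -86.5 kb, boundary of the Firre KO-labelled matrix): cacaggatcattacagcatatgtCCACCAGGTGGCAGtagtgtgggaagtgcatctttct
Eomes (chr9:118515717-118515776, plus strand, between genes, at 128.4 kb, boundary of both): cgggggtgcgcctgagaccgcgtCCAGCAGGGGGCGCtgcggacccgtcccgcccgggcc
Gsc (chr12:105686542-105686601, minus strand, between genes, at 25.0 kb, boundary of both): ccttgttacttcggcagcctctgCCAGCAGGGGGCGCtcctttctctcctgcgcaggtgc
Mixl1 (chr1:182804287-182804346, plus strand, between genes, at -177.2 kb, boundary of WT): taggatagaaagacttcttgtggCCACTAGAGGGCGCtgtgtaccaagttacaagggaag
Mesp1 (chr7:86872139-86872198, minus strand, inside Plin1 but in no exon, at 66.5 kb, boundary of WT): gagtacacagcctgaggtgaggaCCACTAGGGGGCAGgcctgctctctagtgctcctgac
Mesp1 (chr7:86925571-86925630, plus strand, inside Wdr93 but in no exon, at 13.1 kb, boundary of the Firre KO-labelled matrix): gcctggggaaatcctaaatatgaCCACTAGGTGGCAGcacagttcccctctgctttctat
Tbx5 (chr5:120191299-120191358, plus strand, between Tbx3 and Tbx5, at -93.3 kb, boundary of the Firre KO-labelled matrix): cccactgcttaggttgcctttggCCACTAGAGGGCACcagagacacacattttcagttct
The Eomes and Gsc stretches carry the same 14 letters in capitals on opposite strands of their chromosomes. At Foxa2 no match was found in the 3 bins of the boundary of the Firre KO-labelled matrix, and at Tbx5 none in those of the WT boundary.

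Insulation was compared next, to ask whether the borders around these genes differed between the matrices. The insulation score is the log2 of the contacts across a bin, within a 480 kb square, over the mean of the chromosome, so that a low score means that few contacts cross. The endoderm genes Foxa2 and Sox17 moved in opposite directions. Foxa2, the forkhead pioneer factor of endoderm and floor plate (chromosome 2, 147868613 to 147872705, minus strand), scored 0.11 in WT and -0.26 in the Firre KO-labelled matrix. Sox17, the SRY-box factor of definitive endoderm and haemogenic endothelium (chromosome 1, 4481009 to 4486494, minus strand), scored -0.17 and 0.00. Neither difference, -0.37 and 0.17, reached 0.5.

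The GATA factors, which bind the same DNA motif and overlap in heart and endoderm, also went opposite ways. Gata4 (chromosome 14, 63817759 to 63890529, minus strand) scored 0.03 in WT and -0.34 in the Firre KO-labelled matrix. Gata6 (chromosome 18, 11052508 to 11085633, plus strand) scored 0.32 and 0.62, the highest of the 10 in both matrices. The difference at Gata6, 0.30, was above that of 92.1% of all genes. With a square of 240 kb both were higher in the Firre KO-labelled matrix, by 0.19 at Gata4 and 0.13 at Gata6.

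The mesendoderm genes differed in direction. Eomes, the T-box factor that starts mesendoderm in the streak (chromosome 9, 118387330 to 118395250, plus strand), scored 0.03 in WT and -0.94 in the Firre KO-labelled matrix, a difference of -0.97. With a square of 960 kb it was -0.43, smaller than those of Mixl1 (-1.33), Gsc (0.90), Mesp1 (-2.07) and Gata4 (-1.22), so the order of the genes depended on the size of the square. Read pairs in its square numbered 3209 (3099 to 3322) and 1037 (975 to 1102). Its rank among all genes with a score went from percentile 81.1 to percentile 33.0. Gsc, the homeobox gene of the organizer (chromosome 12, 105709419 to 105711537, minus strand), scored -0.28 and 0.01. Mixl1, a paired-type homeobox gene of the streak (chromosome 1, 182623174 to 182627165, minus strand), scored -0.65 and -0.82.

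The mesoderm and heart genes had negative scores in both matrices with this square. That is usual, since the median of all genes with a score was -0.37 in WT and -0.62 in the Firre KO-labelled matrix. Hand1 lay above these medians, at percentiles 56.2 and 65.7. Hand1, a basic helix-loop-helix factor of heart and extraembryonic tissue (chromosome 11, 57642207 to 57646320, minus strand), scored -0.30 in WT and -0.34 in the Firre KO-labelled matrix. Mesp1, the basic helix-loop-helix factor of early cardiac mesoderm (chromosome 7, 86937127 to 86938674, minus strand), scored -0.64 and -1.29, a difference of -0.64. Tbx5, the T-box factor of heart and forelimb (chromosome 5, 120284672 to 120335227, plus strand), scored -0.37 and -0.71. Mesp1 thus had the lowest score of the 10 in the Firre KO-labelled matrix, and a square of 2008 read pairs (1921 to 2098) in WT and 864 (807 to 924) there.

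Over the group, scores were lower in the Firre KO-labelled matrix at 7 of the 10 genes, beside 72.9% of all genes. The median difference was -0.26 over the 10 and -0.26 over all 20490 genes with a score. This depended on the setting: with a square of 240 kb the scores were lower at 4 of the 10, beside 67.9% of all genes, with a median of 0.09 beside -0.16 over all genes. With a square of 960 kb the medians were -0.29 and -0.66, and with a plain mean of the square -0.10 and -0.20. The score was at least 0.5 lower in the Firre KO-labelled matrix at 2 of 10 genes, Eomes and Mesp1, beside 31.3% of all genes. It was at least 0.5 higher at 0 of 10, beside 2.63% of all genes. Over 7 settings of the score, the difference was below 0 in every setting at Eomes (-1.14 to -0.43), Mesp1 (-2.07 to -0.20) and Hand1 (-0.37 to -0.01). It was above 0 in every setting at Gata6 (0.03 to 0.30) and Gsc (0.13 to 0.90), and it changed sign with the setting at Foxa2, Sox17, Gata4, Mixl1 and Tbx5. Of these settings, the lowest score over the gene body repeated the main difference at every gene but Gata4 and so added no check there. The share of all genes that kept 1 sign over the settings was not computed.

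**Figure D1:**
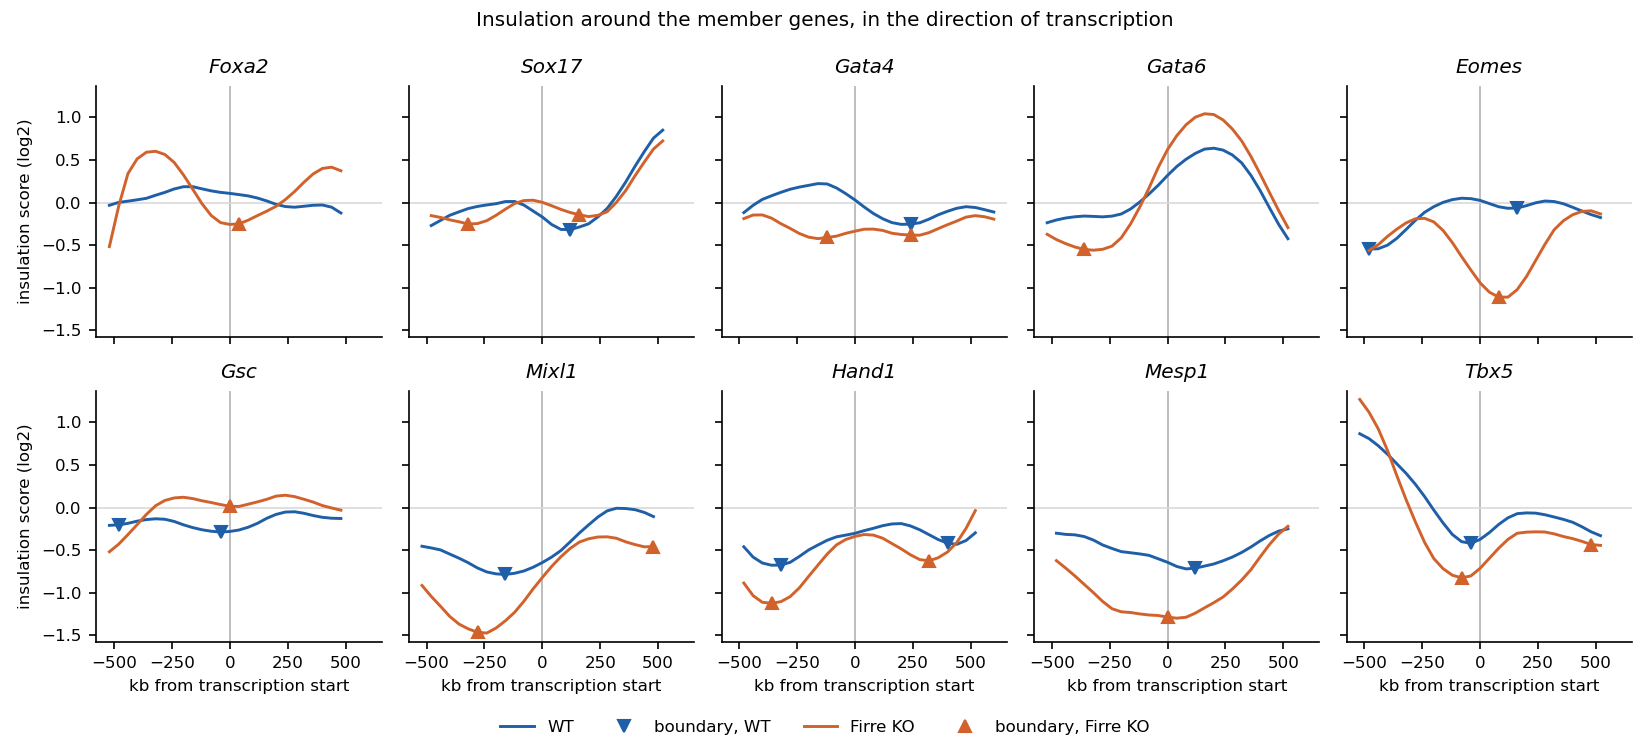
Insulation score (log2, vertical axis) against distance from the transcription start in kb, in the direction of transcription, for each of the 10 genes in WT (blue) and the Firre KO-labelled matrix (orange), with triangles at called boundaries. Eomes scored 0.03 in WT and -0.94 in the Firre KO-labelled matrix at its start, while both Gata6 profiles peak downstream of the start.

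Boundaries, which are local minima of the insulation profile, lay close to few of the starts. In WT a boundary was called within 1 bin of the start at 2 of 10 genes (Gsc and Tbx5), beside 18.7% of all genes. For the Firre KO-labelled matrix the count was 3 of 10 (Foxa2, Gsc and Mesp1), beside 18.9% of all genes. Only Gsc had one in both matrices, 1 of 10 beside 9.32% of all genes. Its boundary was weak, with a strength of 0.31 in WT and 0.18 in the Firre KO-labelled matrix.

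At the T-box pair, 1 border separated Tbx5 from its neighbour Tbx3, which patterns limb and cardiac conduction tissue and starts 164 kb upstream. The boundary was called at 120240001 to 120280000 in WT, in the bin next to the Tbx5 start, with a strength of 0.98. In the Firre KO-labelled matrix it was called in the next bin, 120200001 to 120240000, with a strength of 1.69. Contacts between the 2 starts were 0.215 times the expected value (0.103 to 0.395) from 10 read pairs in WT and 0.489 times (0.244 to 0.875) from 11 in the Firre KO-labelled matrix. Both values were thus below 1, and their log2 ratio of 1.18 had an interval of -0.19 to 2.58.

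Other borders next to the genes moved or differed in depth. Foxa2 had no boundary within 500 kb in WT, where the nearest was 720 kb away, and 1 at 40 kb downstream in the Firre KO-labelled matrix, with a strength of 1.07. The nearest boundary of Eomes was 160 kb downstream with a strength of 0.14 in WT and 80 kb downstream with a strength of 1.41 in the Firre KO-labelled matrix. Mesp1 lay 120 kb from its nearest boundary in WT, with a strength of 0.44, and in the boundary bin itself in the Firre KO-labelled matrix, with a strength of 1.08. Its paralogue and neighbour Mesp2, which segments somites, starts 16.9 kb away in the same bin, so no border between the pair could be seen at 40 kb. In the Firre KO-labelled matrix the nearest boundary was weaker than in WT at Sox17 (1.03 to 0.83), Gata4 (0.50 to 0.31) and Gata6 (1.42 to 1.25). At Hand1 it was stronger (0.89 to 1.23). These boundaries lay in different bins in the matrices. The share of all genes whose nearest boundary moved or differed in strength was not computed.

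Mixl1 lay near a cluster of Nodal pathway genes. Lefty2 and Lefty1, secreted inhibitors of Nodal, start 196 kb and 238 kb from it. In WT 1 boundary lay between Mixl1 and both, whereas in the Firre KO-labelled matrix 0 did. The nearest boundary there was called 280 kb upstream of Mixl1, 40 kb (1 bin) from the Lefty1 start. The lowest score of the locus, -1.47, lay in the Lefty1 bin itself. A step of 1 bin in a smoothed profile does not place the border beyond the Lefty genes. The lowest score between Mixl1 and Lefty2 was -0.79 in WT and -1.42 in the Firre KO-labelled matrix. Contacts between the starts of Mixl1 and Lefty2 were 0.418 times the expected value (0.278 to 0.604) in WT and 0.688 times (0.453 to 1.00) in the Firre KO-labelled matrix. Those of Mixl1 and Lefty1 were 0.404 (0.215 to 0.690) and 0.344 times (0.138 to 0.709), with 13 and 7 read pairs. The log2 ratio was 0.72 (-0.10 to 1.53) for Lefty2 and -0.23 (-1.79 to 1.20) for Lefty1, and both intervals held 0. The bins of Mixl1 and the Lefty genes therefore met less often than bins at this distance elsewhere on chromosome 1 in WT, while for Lefty2 the interval in the other matrix reached 1.

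Contacts of the start bin at 80 to 480 kb were split into upstream and downstream in the direction of transcription, and each side was divided by its expected value. The start met its upstream side more in both matrices, with intervals above 0, at 5 of 10 genes (Sox17, Eomes, Gsc, Hand1 and Mesp1), beside 24.7% of all genes. It met its downstream side more in both at 3 (Foxa2, Mixl1 and Tbx5), beside 25.3% of all genes. Within 250 kb the latter count was 2, since Mixl1 had -0.09 (-0.32 to 0.14) in WT.

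Tbx5 leaned to downstream, away from Tbx3. Of its 1084 read pairs in WT, 24.7% (22.2% to 27.4%) lay upstream, and of 559 in the Firre KO-labelled matrix, 26.3% (22.7% to 30.2%). Eomes leaned upstream, with 64.1% (61.5% to 66.6%) upstream in WT and 81.4% (78.1% to 84.3%) there. On the log2 scale after correction its upstream to downstream ratio was 1.29 (1.13 to 1.45) and 2.61 (2.33 to 2.91), and these intervals do not overlap. Mixl1 differed toward downstream, with -0.27 (-0.46 to -0.07) and -0.88 (-1.15 to -0.62), also without overlap. Within 250 kb its intervals overlapped, at -0.32 to 0.14 and -0.89 to -0.25. Gata6, described next, was the only other gene without overlap at the main span. The share of all genes without overlap was not computed.

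Gata4 and Gata6 had no side that both matrices shared at this span. At Gata4 the log2 ratio was 0.11 (-0.05 to 0.28) in WT and -0.03 (-0.25 to 0.20) in the Firre KO-labelled matrix, so both intervals held 0. At Gata6 it was 0.16 (-0.03 to 0.34) and -0.45 (-0.67 to -0.23). Within 250 kb Gata6 had 0.35 (0.13 to 0.58) in WT, toward upstream, and 0.13 (-0.14 to 0.41) in the Firre KO-labelled matrix, so the downstream side of the latter was not seen at that span. Within 1 Mb it was seen, at -0.77 (-0.96 to -0.58), beside 0.02 (-0.14 to 0.19) in WT.

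**Figure D2:**
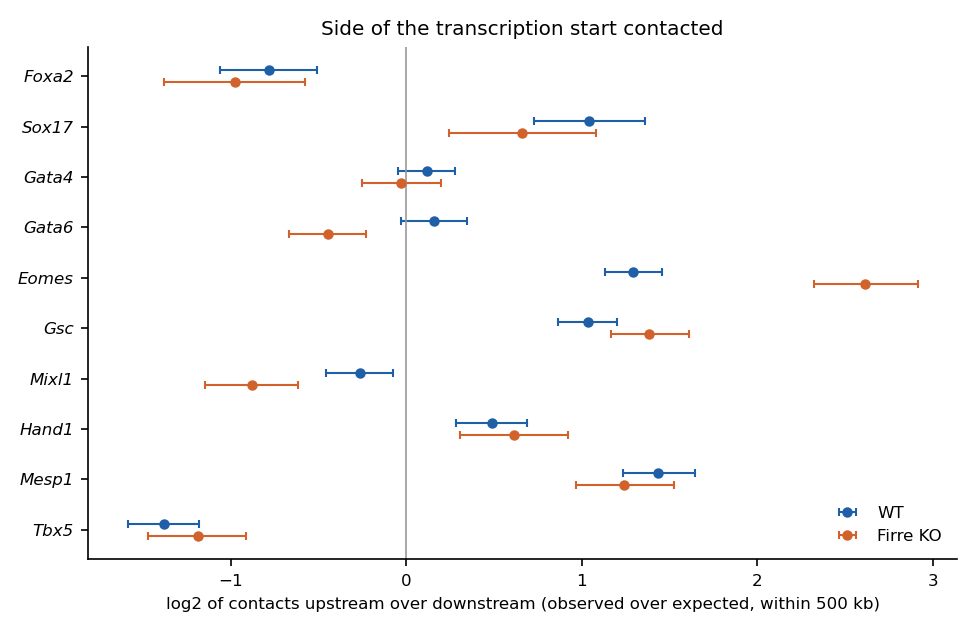
Log2 ratio of contacts of the start bin upstream over downstream of transcription, each as observed over expected, for the 10 genes (rows) in WT (blue) and the Firre KO-labelled matrix (orange), with 95% counting intervals. Tbx5, at -1.38 and -1.19, has the lowest value in both matrices at this span, while the highest is Mesp1 at 1.44 in WT and Eomes at 2.61 in the Firre KO-labelled matrix.

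Contacts inside the loci differed little between the matrices. The mean of observed over expected values within a locus ran from 0.93 at Hand1 to 1.17 at Mixl1 in WT, and from 0.85 at Hand1 to 1.20 at Gata6 in the Firre KO-labelled matrix. It was higher in the Firre KO-labelled matrix at 3 of 10 genes, beside 37.3% of all genes. These 3 were Gata6 (log2 ratio 0.16, 0.11 to 0.21), Gsc (0.13, 0.10 to 0.17) and Foxa2 (0.06, 0.01 to 0.11), and each interval lay above 0, as at 24.9% of all genes.

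Hand1, Mesp1, Eomes and Mixl1 had intervals below 0, 4 of 10 beside 48.4% of all genes. The log2 ratio was -0.12 (-0.16 to -0.08) at Hand1 and -0.14 (-0.18 to -0.10) at Mesp1. It was -0.06 (-0.09 to -0.02) at Eomes and -0.05 (-0.09 to -0.01) at Mixl1. With the expected value taken over all autosomes, the interval at Mixl1 held 0 (-0.02, -0.06 to 0.02) and that at Tbx5 lay below 0 (-0.04, -0.08 to -0.01). Within bins of 250 kb on each side instead of 500 kb, contacts were higher in the Firre KO-labelled matrix at 8 of 10, all but Eomes and Mesp1, beside 41.3% of all genes. The sign thus turned with the span at Sox17, Gata4, Mixl1, Hand1 and Tbx5, and of these the interval within 250 kb lay above 0 at Gata4, 0.10 (0.05 to 0.16).

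The TADs that held the genes, between the nearest boundaries of WT, spanned 560 kb at Tbx5 to 1680 kb at Foxa2. Contacts inside them had log2 ratios of -0.17 to 0.22. The highest value was at Gsc, 0.22 (0.17 to 0.26), whose start lay in the last bin of a TAD of 960 kb, and the lowest value was at Sox17, -0.17 (-0.25 to -0.09). In TADs between boundaries of the Firre KO-labelled matrix, Sox17 had -0.03 (-0.13 to 0.07) and the highest value was at Foxa2, 0.23 (0.18 to 0.29), while Gsc and Mesp1 lay in boundary bins and gave no value.

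The compartment of the loci was read in 3 ways. The first principal component of each chromosome's contact map, oriented so that gene-rich windows were positive (A), put 7 of 10 genes in A in WT, beside 71.2% of all genes. In the Firre KO-labelled matrix it put 4 of 10 in A, beside 61.5% of all genes. Its sign differed between the matrices at 5 of 10 genes, beside 19.8% of all genes: Eomes, Gsc, Hand1 and Tbx5 went from A to B and Gata6 from B to A. With windows of 400 kb the sign differed at 3 of 10 (Gsc, Tbx5 and Gata6), beside 20.9% of all genes, while Eomes was in B in both (-0.10 and -1.18) and Hand1 in A in both (0.83 and 0.12). For Gsc and Hand1 the values with windows of 200 kb in the Firre KO-labelled matrix were close to 0, at -0.12 and -0.07. On chromosome 18, which carries Gata6, the component of the Firre KO-labelled matrix had a correlation with gene density of 0.24 and the next component 0.32, so the sign there is weakly anchored. On chromosome 14, which carries Gata4, these were 0.26 and 0.38.

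The preference of a locus for A over B does not rest on the component at the locus itself. It is the log2 of its contacts with A windows over those with B windows, each as observed over expected, with A and B windows taken where both matrices gave the same sign. Within its own chromosome, at more than 2 Mb, it was above 0 at 6 of 10 loci in WT, beside 65.5% of all genes. In the Firre KO-labelled matrix it was above 0 at 4 of 10, beside 55.4% of all genes. It was lower there than in WT at 7 of 10 loci, beside 57.7% of all genes.

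Contacts with the other autosomes gave the third reading. The preference was above 0 at 8 of 10 loci in WT, beside 81.1% of all genes, and at 7 of 10 in the Firre KO-labelled matrix, beside 71.4% of all genes. It was lower in the Firre KO-labelled matrix at 7 of 10 loci, beside 59.4% of all genes. The medians over the 10 loci were lower than those of all genes, with values of 0.80 in WT and 0.39 in the Firre KO-labelled matrix beside 0.92 and 0.65 over all genes.

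The 2 endoderm genes had the lowest preference for A across chromosomes in WT. Foxa2, in a gene-poor stretch, had -0.36 (-0.45 to -0.28) in WT and -0.04 (-0.10 to 0.02) in the Firre KO-labelled matrix. Sox17 had -0.06 (-0.14 to 0.02) and -0.85 (-0.92 to -0.78). On its own chromosome, Foxa2 had the lowest value of the 10 in WT, -1.16 (-1.21 to -1.11), and -0.36 (-0.43 to -0.29) in the Firre KO-labelled matrix. With the bins of the gene body alone this turned, to -0.80 and -1.14. Across chromosomes Sox17 was lower in the Firre KO-labelled matrix in all 5 settings of the measure, by 0.44 to 0.97, while Foxa2 was higher in 4 and lower in 1, when the bins of the gene body alone were used.

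Gata6 and Tbx5 differed in opposite directions. The preference of Gata6 across chromosomes was 0.17 (0.11 to 0.24) in WT, from 3854 read pairs with A and 3488 with B, and 1.20 (1.15 to 1.26) in the Firre KO-labelled matrix, from 8683 and 3615. The difference of 1.03 (0.94 to 1.11) was above that of 98.8% of all genes, and it ran from 0.66 to 1.26 over the 5 settings. Tbx5 had 1.19 (1.13 to 1.25) in WT and -0.06 (-0.11 to -0.01) in the Firre KO-labelled matrix. Its difference of -1.25 (-1.32 to -1.17) lay at percentile 3.32 of all genes, and it ran from -1.38 to -0.77. It was the lowest of the 10 except with the bins of the gene body alone, where Eomes (-1.24) and Sox17 (-0.97) were lower. Within their own chromosomes the differences had the same signs, 0.76 (0.63 to 0.89) at Gata6 and -1.23 (-1.32 to -1.14) at Tbx5. Tbx3, which shares the Tbx5 locus, went from 1.19 to 0.10 across chromosomes.

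Mixl1 and Mesp1 were the loci most firmly in A. The preference across chromosomes was 1.81 (1.74 to 1.87) and 2.17 (2.11 to 2.22) at Mixl1, and 1.55 (1.49 to 1.62) and 1.53 (1.48 to 1.58) at Mesp1. With A and B windows of WT alone, a choice made after seeing the data, Mixl1 had 1.69 and 1.46, so the difference was -0.23 instead of 0.36. The loci of Mixl1 and Mesp1 held the most protein-coding genes of the group, 21 and 25. The interval of the difference at Mesp1, -0.10 to 0.06, held 0.

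The remaining loci had positive values across chromosomes in both matrices, but not all did within their own chromosome. There Eomes had -0.15 (-0.20 to -0.10) in WT and -0.32 (-0.39 to -0.25) in the Firre KO-labelled matrix. Gsc had 0.18 and -0.03, Hand1 0.01 and -0.28, and Gata4 0.80 and 0.42. With the bins of the gene body alone, Eomes had -0.08 across chromosomes in the Firre KO-labelled matrix. The main values across chromosomes were as follows. Gata4 had 1.42 (1.36 to 1.48) and 1.06 (1.01 to 1.11), and Eomes 0.79 (0.73 to 0.84) and 0.21 (0.17 to 0.26). Gsc had 0.65 (0.59 to 0.70) and 0.24 (0.19 to 0.29), and Hand1 0.81 (0.75 to 0.87) and 0.55 (0.50 to 0.60). These 4 were all lower in the Firre KO-labelled matrix by more than the counting error. Such a call was usual here, since over the 10 loci the interval of the difference lay below 0 at 6 and above 0 at 3. At Gata4, Eomes and Gsc the difference was below 0 in all 5 settings, though its counting error was computed for the main setting only. The share of all genes with such intervals, or with 1 sign over the settings, was not computed.

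**Figure D3:**
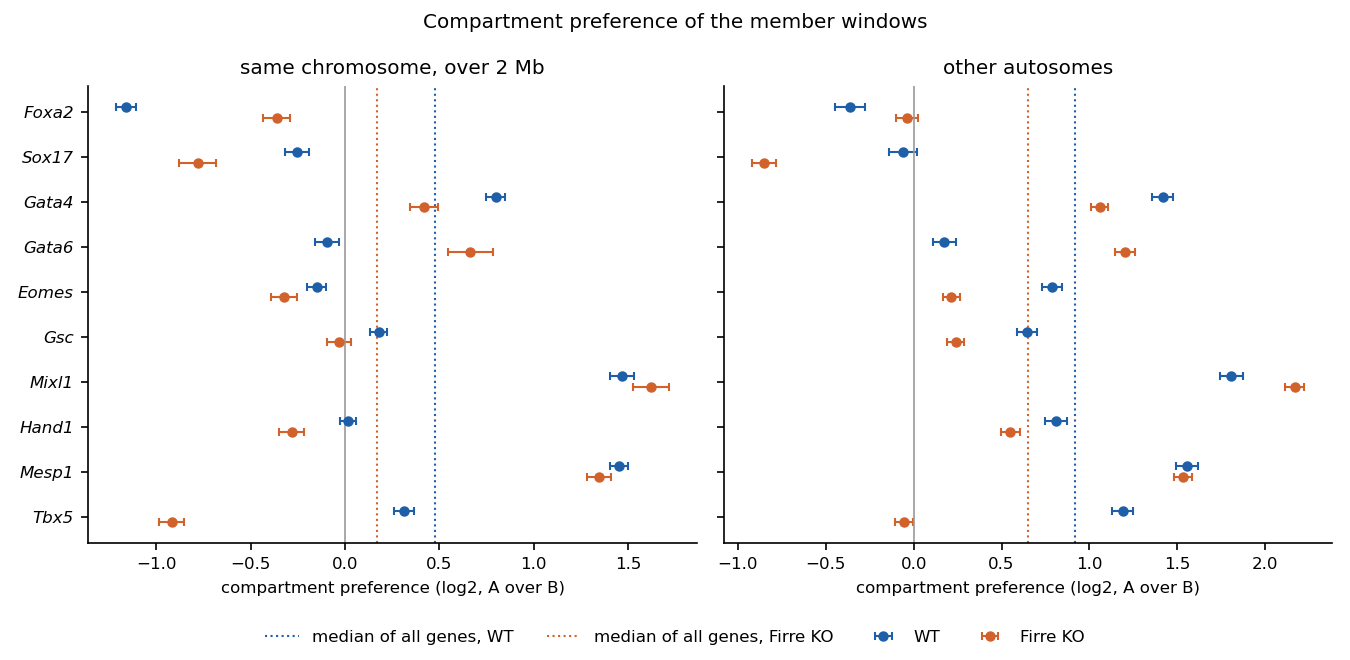
Compartment preference of each locus (rows), the log2 of contacts with A over B windows, on its own chromosome beyond 2 Mb (left) and with the other autosomes (right), in WT (blue) and the Firre KO-labelled matrix (orange), with 95% counting intervals and dotted lines at the medians of all genes. Gata6 lies at 0.17 and 1.20 and Tbx5 at 1.19 and -0.06 in the right panel.

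Contacts of the loci with each other were sparse. The 10 loci form 44 pairs on different chromosomes, with 1 to 23 read pairs per pair in WT and 2 to 22 in the Firre KO-labelled matrix (medians 8 and 9). Summed over the 44, they met 1.37 times as often as the mean of their chromosome pairs (1.23 to 1.52; 359 read pairs) in WT. In the Firre KO-labelled matrix the value was 1.11 (1.01 to 1.22; 441 read pairs), and this interval held 1 when any 1 of Gata4, Gata6, Gsc, Mixl1 or Mesp1 was left out. With bins within 250 kb the values were 1.52 in WT and 0.929 in the Firre KO-labelled matrix, on the other side of 1. The log2 ratio was -0.31 (-0.51 to -0.10), and it stayed between -0.43 and -0.24 when each gene was left out in turn. For windows of 1 Mb the same measure was 1.00 in both matrices over all 2573766 pairs on different chromosomes. Where both windows lay in A it was 1.79 and 1.72, above the values summed over the 44 pairs. It was 0.80 and 0.75 where 1 window lay in A and the other in B. The 44 pairs also hold loci in B, so windows both in A are not a like comparison for them.

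Contacts per pair could rarely be told apart between the matrices. They were at least 1.5 times as high in the Firre KO-labelled matrix at 9 of 44 pairs, beside 36.6% of all pairs of windows, and at least 1.5 times as high in WT at 16 of 44, beside 32.2%. Where both windows lay in A, whose read pairs per pair were closer to those of the loci, these shares were 24.6% and 25.4%. The interval of the ratio lay below 0, higher in WT, at 3 of the 44, beside 3.37% of all pairs of windows and 6.09% of those both in A. These 3, Mixl1 with Mesp1, Hand1 with Tbx5 and Gata4 with Hand1, are a share near that background. It lay above 0 at 0 of the 44, beside 2.18% and 4.67%.

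Mixl1 with Mesp1 held 23 read pairs and 5.14 times the expected value (3.26 to 7.72) in WT, and 21 read pairs and 2.06 times (1.28 to 3.15) in the Firre KO-labelled matrix. The interval of this pair thus lay above 1 in both matrices, with a log2 ratio of -1.32 (-2.25 to -0.40). Gata4 with Mixl1 was the other pair whose interval lay above 1 in both, at 2.05 (1.06 to 3.58) and 2.31 (1.45 to 3.50). Intervals lay above 1 at 7 of 44 pairs in WT and 2 of 44 in the Firre KO-labelled matrix, and below 1 at 3 in each. The share of all pairs of windows with such intervals was not computed. Pairs of 1 Mb windows both in A had medians of 1.60 and 1.56, so values above 1 were usual there. Hand1 with Tbx5, 2 genes of the developing heart, was at 1.92 (1.10 to 3.12) in WT and 0.684 in the Firre KO-labelled matrix, from 16 and 9 read pairs, with a log2 ratio of -1.49 (-2.85 to -0.22).

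Foxa2, Sox17 and Gata6 met the other loci at about the mean of their chromosome pairs, with intervals that held 1 in both matrices. In WT, Foxa2 had 0.97 (0.67 to 1.34), Sox17 0.93 (0.63 to 1.32) and Gata6 0.95 (0.69 to 1.29). The other 7 genes had values of 1.39 or more in WT, with intervals above 1. These are the 7 genes that the first principal component, with windows of 200 kb, put in A in WT. Pairs of 1 Mb windows both in A had a summed value of 1.79 in WT, and pairs of A with B had 0.80. The value of each of the 7 genes also holds its pairs with Foxa2, Sox17 or Gata6, which the component put in B. Windows both in A are therefore not a like comparison for it. In the Firre KO-labelled matrix, Mixl1 at 1.36 (1.10 to 1.65) and Mesp1 at 1.24 (lower limit 1.03) were the members whose interval lay above 1. The log2 ratio was below 0, interval included, for Tbx5 (-0.58), Mixl1 (-0.53), Eomes (-0.53) and Mesp1 (-0.45). Each pair counts for both of its genes, so the values per gene are not separate results. The shares of other loci with such intervals were not computed.

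**Figure D4:**
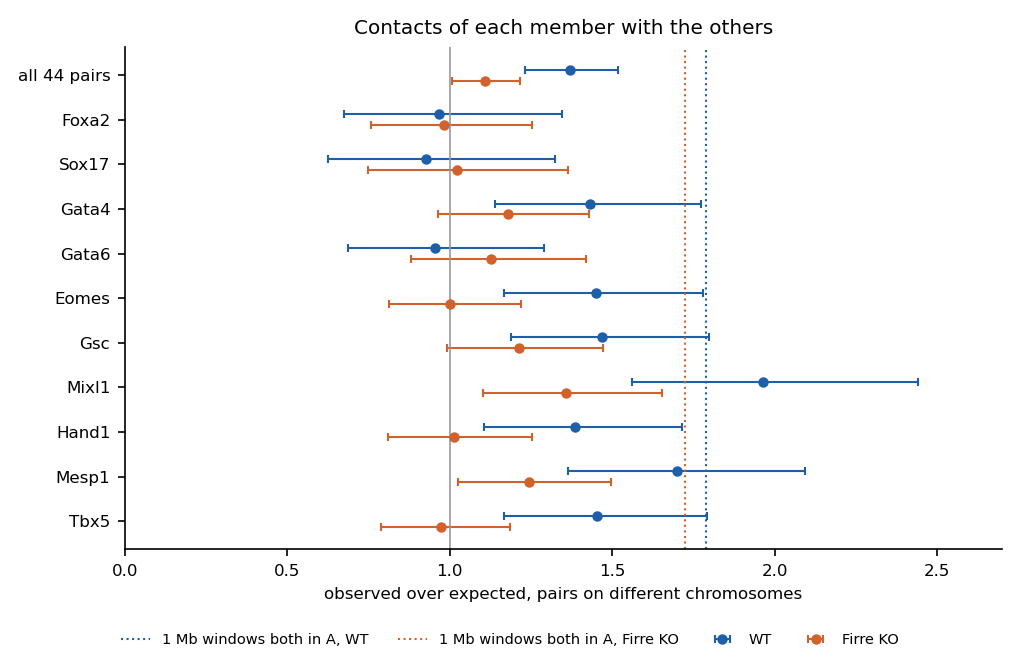
Observed over expected contacts of each gene's locus with the loci of the others on different chromosomes (horizontal axis), for the 44 pairs together and for each gene (rows), in WT (blue) and the Firre KO-labelled matrix (orange), with 95% counting intervals and dotted lines for 1 Mb windows both in A. The value for the 44 pairs is 1.37 in WT and 1.11 in the Firre KO-labelled matrix. The rows also hold pairs with loci in B, so the dotted lines are not a like comparison.

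**Figure D5:**
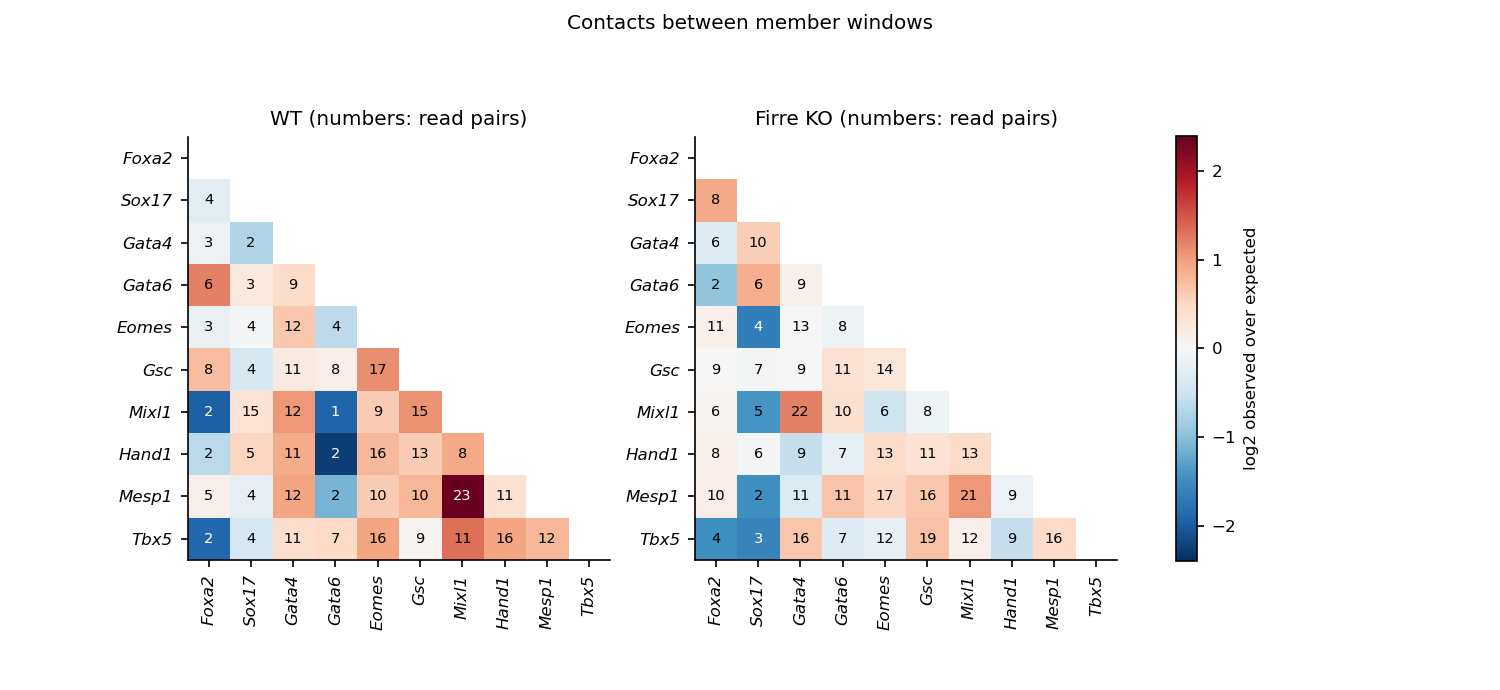
Log2 of observed over expected contacts (colour) for every pair of loci in WT (left) and the Firre KO-labelled matrix (right), with the read pairs written in each cell. Mixl1 with Mesp1, at 23 and 21 read pairs, is the darkest red cell in WT, and Sox17 with Mixl1, at 15 and 5, is the 1 pair on the same chromosome.

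Sox17 and Mixl1, at opposite ends of chromosome 1, gave the only pair on 1 chromosome. They were joined by 15 read pairs in WT, 1.25 times the expected value at that distance (0.70 to 2.06), and by 5 in the Firre KO-labelled matrix, 0.37 times (0.12 to 0.87). With bins within 1 Mb the values were 1.03 and 0.72.

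Each locus was also followed to the 1 Mb window on its own chromosome, more than 2 Mb away, that it met most above expectation in WT, and the value there was then read in the Firre KO-labelled matrix, which did not choose the window. The window of Sox17 (chromosome 1, 90000001 to 91000000, 86.0 Mb away, with Ugt1a genes of glucuronidation and Hjurp, the chaperone of centromeric histone) stood at 4.11 times the expected value (3.76 to 4.47) in WT and 3.57 times (3.08 to 4.12) in the Firre KO-labelled matrix, and ranked 1 of 113 in the second matrix as well. A single bin of that window, starting at 90120001, held 251 of the 524 read pairs in WT and 89 of the 188 in the Firre KO-labelled matrix. The window of Mixl1 (chromosome 1, 74000001 to 75000000, 108 Mb away, with the ligand genes Wnt6 and Wnt10a) stood at 3.25 times (2.75 to 3.82) and 3.59 times (2.93 to 4.36), rank 1 of 121, and was spread over 130 bin pairs in WT.

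Windows of the other 8 genes were at 1.34 to 2.33 times the expected value in WT. The window of Eomes, with Sesn3 and Kdm4d, ranked 2 of 108 in the Firre KO-labelled matrix at 1.80 times (1.36 to 2.34), and that of Tbx5, with Htt and the homeobox gene Hmx1, ranked 12 of 119 at 1.62 times (1.28 to 2.03). The window of Gata6, which holds no protein-coding start, went from 79 to 12 read pairs and stood at 0.512 times (0.265 to 0.895) in the Firre KO-labelled matrix, rank 67 of 79. Gata4 had 1.34 times in WT and 0.857 times (0.679 to 1.07) in the other matrix, rank 41 of 103. A window picked as the highest in 1 matrix is bound to lie lower, on average, in the other.

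Beyond the 10 genes, 29 further regulators of mesoderm and endoderm were read in the same way. Their insulation score was at least 0.5 lower in the Firre KO-labelled matrix at 7 of 29, beside 31.3% of all genes, and at least 0.5 higher at 1, beside 2.63%. The 7 were the Nodal ligand gene Nodal (-0.50), its inhibitors Lefty1 (-0.72) and Lefty2 (-0.64), Tbx3 (-0.54), Mesp2 (-0.64), and the endoderm factors Hnf4a (-0.59) and Foxa3 (-2.38). The gene with a higher score was Cer1, an inhibitor of Nodal and Bmp secreted by endoderm (0.56). Mesp2 shares the bin of Mesp1, so the value is the same measurement. Lefty2 and Lefty1 lie in neighbouring bins of the Mixl1 locus and Tbx3 lies in the Tbx5 locus, with squares that overlap. The 7 are therefore not separate results. The preference for A across chromosomes was above 0 at 25 of 29 in WT and 22 of 29 in the Firre KO-labelled matrix, beside 81.1% and 71.4% of all genes, with medians of 1.19 and 0.95.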

How the data were processed

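The authors mapped the reads of both libraries of a group to mm9, filtered and binned them at 40 kb and corrected the matrix iteratively (HiC-Pro 2.7.8, per the submitters' processing notes). The authors deposited this corrected contact signal, whose total is equal for all kept bins. The weight that the correction gave to each bin was fitted here, and after division by the weights 100% of the entries came out within 0.05 of a whole number, which gave the read pairs behind each interval. Insulation followed the study's settings (square 480 kb, delta span 320 kb, smoothing 160 kb, interquartile mean, strength above 0) in an own implementation, whose details can differ. Expected values were means at the same distance on the chromosome or over a pair of chromosomes. The component used windows of 200 kb. Intervals are exact Poisson, exact (Clopper-Pearson) or conditional binomial at 95%, and intervals of differences between preferences use the counting standard error. With 1 pooled matrix per group, the intervals cover counting error only. Reads carry no molecular identifiers, so any duplicates left by the filtering count as separate read pairs. Gene positions came from a GENCODE annotation of the same build, whose chromosome lengths equal those of the bin table. The genes and lists were chosen with earlier results of these data known. Genes were named as follows: all 10 members, regulators of the list of 29 near a member or past 0.5 in insulation, and the long-range window highest in WT with at least 20 read pairs. Functions were tested on simulated matrices. Python 3.11.15, numpy 2.4.6 and scipy 1.17.1 were used.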

Additional observations from a re-analysis of the deposited data

How the results depend on the processing

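No paired analysis was possible because the 2 libraries of each group were pooled by the authors into 1 matrix. The labels number the libraries 1 and 2 in both groups, but no value belongs to a single library. Of 103 values recomputed under the alternatives, 91 stayed within the interval of the reported value or, for counts, within 1.5 times of it, which includes counts that went from 2 to 3 or from 3 to 2. The 91 include every value with a gene left out in turn, which shares most of the 44 pairs with the reported value. Such values could hardly move, so the count of 91 overstates how stable the results were. Genes with an insulation score at least 0.5 lower in the Firre KO-labelled matrix numbered 1 instead of 2 with a square of 240 kb, with a plain mean in place of the interquartile mean, and with that mean on uncorrected read pairs (chosen after seeing the data). With a square of 960 kb, 1 gene instead of 0 was at least 0.5 higher. Boundaries within 1 bin in WT were found at 1 gene instead of 2 with the plain mean or with uncorrected read pairs, and within 2 bins in the Firre KO-labelled matrix at 5 instead of 3. Contacts inside the loci were higher in the Firre KO-labelled matrix at 8 genes instead of 3 with bins within 250 kb, which turned the majority. By the sign of the preference across chromosomes, 7 genes instead of 4 were in A in the Firre KO-labelled matrix. With bins within 250 kb, contacts between loci on other chromosomes were 1.52 in WT and 0.93 in the Firre KO-labelled matrix, a log2 ratio of -0.71, so the value of the latter matrix passed from above 1 to below 1. The cause of these shifts was not tested. Taking A and B windows from WT alone, also chosen after seeing the data, turned the difference in preference across chromosomes at Mixl1 from 0.36 to -0.23. The 44 pairs held a median of 8 and 9 read pairs, too few to order single pairs.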
